A study of Mus musculus with 8 samples.

Results

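The 5 genes described here encode the secreted proteases that turn plasminogen into plasmin (Plat and Plau), the surface receptor of one of them (Plaur), a serpin that inhibits both proteases and thrombin (Serpine2), and tissue factor, which starts blood clotting (F3). They were chosen by symbol in the table that compares Yoda1 with DMSO, and all 5 of 5 symbols were found among its 20972 rows. The samples were MC3T3-E1 subclone 14, a single subclone of a mouse osteoblastic cell line, grown to near confluence and then given 10 µM Yoda1, a compound that opens the mechanosensitive cation channel PIEZO1, for 24 h, or DMSO, the solvent of Yoda1. Both groups shared the line and the medium, and the labels name no allele or transgene. The labels name 8 samples, 4 with Yoda1 and 4 with DMSO, and leave 1 of each out of the final analysis for batch variation, so that 3 remain per group. The series' design text describes human endothelial cells, and the sample labels were followed instead. The series title links endothelial PIEZO1, GREM1 and BMP signaling to bone, and the comparison here asks what the agonist does to an osteoblastic line.

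Plasmin is a broad serine protease that dissolves fibrin and cuts many matrix proteins. It is made from circulating plasminogen by tissue plasminogen activator, the product of Plat, which works best on fibrin and cell surfaces, and by urokinase, the product of Plau, which works where its receptor uPAR, the product of Plaur, holds it on the membrane. Serpins stop both activators, among them protease nexin 1, the product of Serpine2. Tissue factor is the membrane receptor of coagulation factor VII and leads to thrombin and fibrin, the substrate that plasmin removes. Osteoblasts are known to make plasminogen activators, which act on the matrix they lay down.

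Promoter sequences were at hand for 3 of the 5 genes, Plaur, F3 and Serpine2. Those of Plaur, which was higher with Yoda1, and F3, which was lower, are shown because both stretches hold the 7-base AP-1 motif. Serpine2 was lower too, and its window, which lacks that motif, is not shown. The stretches shown were thus not chosen independently of the motif. The sequences are RefSeq's of build GRCm38.p6, written 5′ to 3′ on the gene's strand, and end at the base before the start site that RefSeq's table uses. The Plaur stretch is chr7:24462233-24462482 on the plus strand and the F3 stretch is chr3:121723287-121723536 on the plus strand. Capitals mark TGACTCA or its reverse complement TGAGTCA, and in F3 also the variant TGAATCA.
Plaur: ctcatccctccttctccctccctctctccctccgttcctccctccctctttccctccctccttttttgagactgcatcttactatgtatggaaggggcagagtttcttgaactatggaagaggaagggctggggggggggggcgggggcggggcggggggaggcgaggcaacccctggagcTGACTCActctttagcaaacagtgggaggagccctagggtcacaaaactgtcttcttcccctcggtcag
F3: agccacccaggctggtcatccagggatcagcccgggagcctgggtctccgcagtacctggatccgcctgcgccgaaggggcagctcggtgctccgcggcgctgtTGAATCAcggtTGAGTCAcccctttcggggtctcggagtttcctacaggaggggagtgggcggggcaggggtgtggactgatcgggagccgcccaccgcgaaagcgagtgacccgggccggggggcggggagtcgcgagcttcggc
The AP-1 motif began 69 bases before the start of Plaur and 135 bases before that of F3, and the variant began 146 bases before the start of F3. On either strand, 5.20% of 32817 promoter windows of 300 bases (250 before and 50 after the start) held TGACTCA and 2.82% held TGAATCA, and no match of one overlaps the other in F3. The window of Serpine2 held neither of these motifs and 6 copies of the GC box GGGCGG, against 3 copies each in those of Plaur and F3. GGGCGG was found in 35.6% of all windows on either strand. The windows were also searched for TGACGTCA, GGAATG and TATAAA. Of these, only TATAAA matched, with 1 copy after the start of F3, and 13.6% of all windows held it. A match of letters is a description of these windows and not a binding site.

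Among the 5 members, 1 was higher with Yoda1 and 3 were lower, while Plau missed the threshold. By the DESeq2 test of the authors' deposited table, the adjusted p lay below 0.05 for Plaur, which was higher, and for Plat, F3 and Serpine2, which were lower. That is 4 of 5 members, where 44.5% of the 14653 tested genes passed (22.4% higher and 22.1% lower), tested genes being those that the authors gave an adjusted p. Of the members, Plat, Plaur and F3 also hold the authors' class for a change, which needs a log2 fold change of more than 0.5 in size and covers 27.1% of tested genes. The median absolute log2 fold change over all tested genes was 0.40, and Plat, Plaur and F3 lay beyond it while Plau and Serpine2 lay within it. In bulk samples, fewer cells of a type and less RNA per cell cannot be told apart. With the fold changes centred so that both groups have equal summed counts, which adds 0.11 to each log2 value, the split over all tested genes was 4138 higher and 2500 lower, in place of 3285 higher and 3233 lower.

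Values per library were not analysed here, so the level in each group is the one implied by the deposited mean and fold change for groups of equal size, with no spread between samples. Plat stood at 320.0 normalized counts with Yoda1 and 1088 with DMSO by the authors' deposited table. Plau stood at 458 with Yoda1 and 379 with DMSO, and Plaur at 1690.2 with Yoda1 and 659.7 with DMSO, by the authors' deposited table. The implied level of Plat was thus lower and that of Plaur higher in Yoda1 cells, and the levels of Plau lay close together. Serpine2 stood at 2815 with Yoda1 and 3200.3 with DMSO, and F3 at 768 with Yoda1 and 1464 with DMSO, by the authors' deposited table. Of the 5 genes, Serpine2 had the ratio closest to 1.

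**Figure D1:**
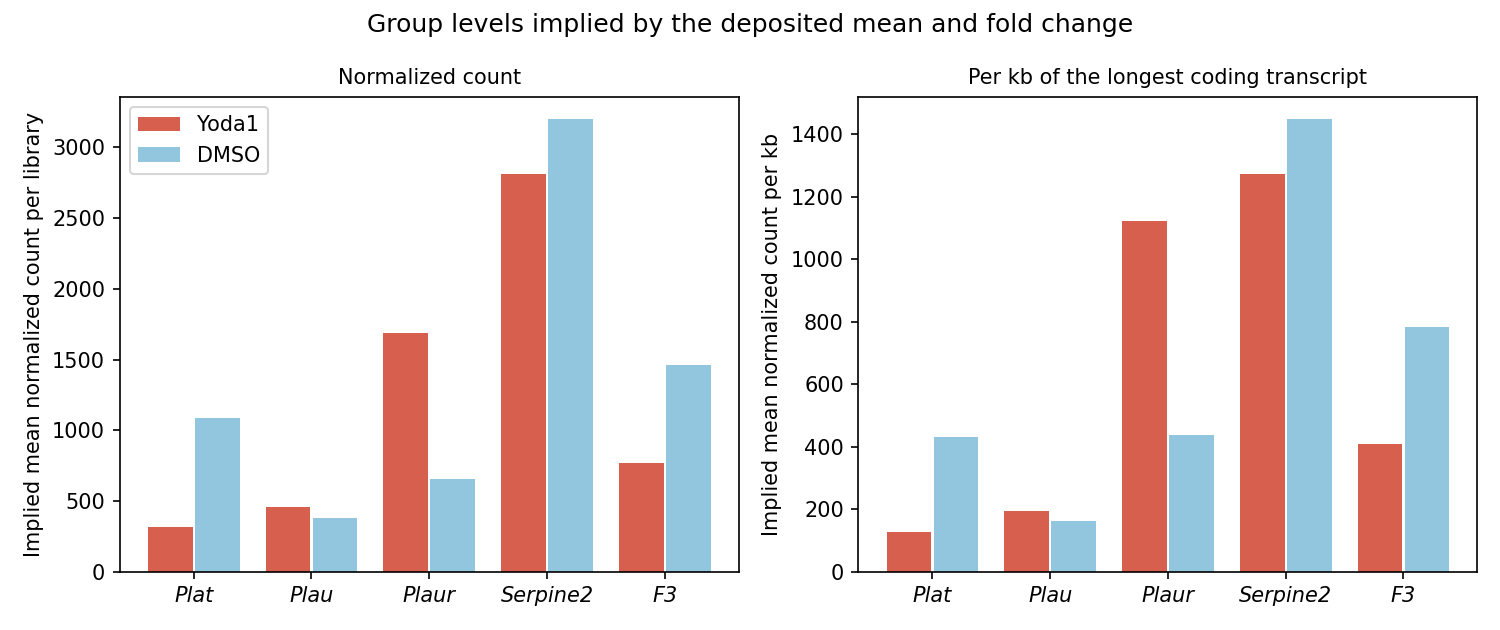
Implied mean normalized count of the 5 members with Yoda1 (red) and DMSO (blue), as counts per library on the left and per kb of the longest coding transcript on the right; bars start at 0 and carry no error, since values per library were not analysed here. Plat and F3 are lower and Plaur is higher with Yoda1, and the bars of Plau (458 and 379 counts) and Serpine2 (2815 and 3200.3 counts) stand close together.

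Levels of different genes were set side by side per kb of the longest coding transcript in GENCODE M21, because a longer transcript gives more reads. With Yoda1 the order of the implied normalized counts per kb was Serpine2 (1274), Plaur (1122), F3 (411), Plau (196) and Plat (127). With DMSO it was Serpine2 (1448), F3 (782), Plaur (438), Plat (431) and Plau (162). Plaur therefore stood close to Serpine2 in Yoda1 cells and beside Plat in DMSO cells. Whether neighbours in either order differ beyond their spread could not be told without values per library.

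The 2 activators parted. Plat, the tissue-type activator, was, in the authors' deposited table, 3.40-fold lower with Yoda1 (95% interval 2.90 to 3.98; log2 fold change -1.77, SE 0.12; DESeq2 adjusted p = 1.33e-50). Of the tested genes, 3.35% had a lower log2 fold change than Plat, and 1.06% had a larger absolute Wald statistic, the ratio of a log2 fold change to its SE. Plau, the urokinase gene, had by the authors' deposited table a Yoda1 to DMSO ratio of 1.21 (1.02 to 1.43; log2 fold change 0.27, SE 0.12; DESeq2 adjusted p = 0.0576). The intervals of the 2 genes did not overlap, and the log2 fold change of Plau exceeded that of Plat by 2.04. The implied ratio of Plau to Plat per kb was 1.54 with Yoda1 and 0.376 with DMSO, a difference that was not tested. The standard error of Plat was near the median of 0.116 over the 4738 tested genes within 2-fold of its mean, so its fold change was measured about as precisely as others at its level. The call of Plau turned on the scaling, since the DESeq2-based adjusted p became 0.0432 when fold changes were centred on their trimmed mean, 0.0437 on their median and 0.00602 for equal group sums, in a range of 0.00602 to 1 for all alternatives.

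In the authors' deposited table, Plaur, the urokinase receptor gene, was 2.56-fold higher with Yoda1 (95% interval 2.21 to 2.96; log2 fold change 1.36, SE 0.11; DESeq2 adjusted p = 7.64e-35). Of the tested genes, 4.07% had a higher log2 fold change. The receptor gene and the gene of its ligand thus differed in size, with a log2 fold change 1.08 larger for Plaur than for Plau. The implied ratio of Plaur to Plau per kb was 5.73 with Yoda1 and 2.71 with DMSO. Plaur and Plat kept their calls under all 9 alternatives that could be run, with largest adjusted p-values of 0.0127 and 0.0101, both against a t distribution (4 degrees of freedom).

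Serpine2, which encodes protease nexin 1, was, in the authors' deposited table, 1.14-fold lower with Yoda1 (95% interval 1.04 to 1.25; log2 fold change -0.18, SE 0.07; DESeq2 adjusted p = 0.0158). Its mean of 3008 normalized counts was higher than that of 91.6% of tested genes, and its standard error was smaller than that of all but 4.23% of the 2386 tested genes within 2-fold of that mean. The small fall of Serpine2 was past the threshold at this precision but below the authors' fold threshold of 0.5. With equal summed counts its log2 fold change was -0.08 (adjusted p = 0.359), and against a t distribution the adjusted p became 0.135, in a range of 0.0136 to 1 for all alternatives. The implied ratio of Plat to Serpine2 per kb was 0.0995 with Yoda1 and 0.297 with DMSO, and that of Plau to Serpine2 was 0.154 with Yoda1 and 0.112 with DMSO. These ratios were not tested.

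In the authors' deposited table, F3, which encodes tissue factor, had a mean of 1116 normalized counts and was 1.90-fold lower with Yoda1 (95% interval 1.70 to 2.13; DESeq2 adjusted p = 6.95e-27). Of the tested genes, 10.1% had a lower log2 fold change. Its log2 fold change of -0.93 in the authors' deposited table does not reach the fold threshold of 1, and the adjusted p stayed at or below 0.0139 in the alternatives. Its standard error of 0.08 was smaller than that of 88.3% of tested genes within 2-fold of its mean.

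**Figure D2:**
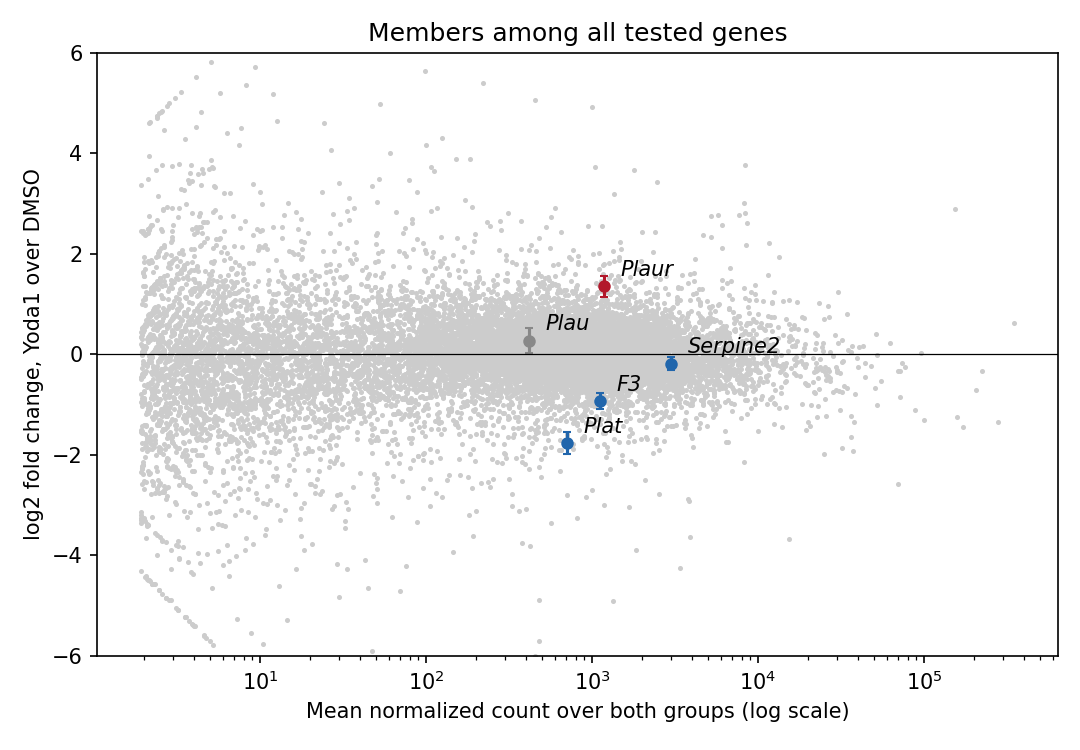
Log2 fold change, Yoda1 over DMSO, against the mean normalized count (log scale) for all tested genes (light grey), with the 5 members as circles; red is higher, blue lower and dark grey not past an adjusted p of 0.05, bars are 95% intervals, and 27 genes beyond ±6 are not drawn. Plaur lies at 1.36 and Plat at -1.77, both within the cloud. Of the tested genes, 4.07% lie higher than Plaur and 3.35% lower than Plat. Plau lies at 0.27 and Serpine2 at -0.18.

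The other genes of the pathway were taken from 5 lists ordered by role, which hold 63 genes with the members. Of these, 50 had a row and 41 were tested, and 11 were higher and 18 lower with Yoda1, which is 70.7% of those tested beside 44.5% of all tested genes. The median log2 fold change was -0.16 over the 41 genes and -0.01 over all tested genes. Without the 5 members, 10 of 36 tested genes were higher and 15 lower. The pathway thus moved in both directions. Of the tested genes within 2-fold of a member's mean, between 51.0% (around Plau) and 65.8% (around Serpine2) passed.

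Among receptors and cofactors, 6 of 14 tested genes were higher and 6 lower (median log2 fold change 0.02). Together these are 85.7% of those tested, beside 44.5% of all tested genes. Mrc2, a collagen receptor that associates with uPAR on the cell surface, was, in the authors' deposited table, 2.18-fold higher with Yoda1 (95% interval 1.96 to 2.43). The plasminogen receptor gene Plgrkt was, by the authors' deposited table, 1.22-fold higher (1.05 to 1.43; DESeq2 adjusted p = 0.0284), a call lost against a t distribution (0.158, within a range of 0.00194 to 1 for all alternatives). On the other side stood both partners of the annexin A2 complex, which gathers tissue plasminogen activator and plasminogen at the membrane. In the authors' deposited table, Anxa2 was 1.44-fold lower (1.30 to 1.59) and S100a10 was 1.60-fold lower (1.44 to 1.78), and neither passed the test against a log2 fold change of 0.5 (adjusted p = 1 and 0.182; smallest for all alternatives 6.53e-12 and 5.58e-17). Itgb3 and Itgav, the integrin chains that together bind vitronectin as uPAR does, were lower in the authors' deposited table, by 2.13-fold (1.81 to 2.51) and 1.69-fold (1.46 to 1.95). Itgav too did not pass the test against 0.5 (adjusted p = 0.142; smallest for all alternatives 1.37e-11). Lrp1, the endocytic receptor that clears complexes of activator and serpin, stood by the authors' deposited table at -0.09 on the log2 scale (SE 0.10; DESeq2 adjusted p = 0.521), and its sign turned for equal group sums (0.018).

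Of 5 tested genes of the inhibitor list, Serpine2 was lower and 4 did not pass the threshold. The share that passed was 20%, beside 44.5% of all tested genes. In the authors' deposited table, Serpinb2, which encodes a plasminogen activator inhibitor, averaged only 45.0 normalized counts and had a ratio of 0.758 (95% interval 0.479 to 1.20). Serpinb6a and Serpinb8, intracellular serpins, stood at -0.14 (SE 0.06; DESeq2 adjusted p = 0.0651) and -0.08 (SE 0.23; DESeq2 adjusted p = 0.827) on the log2 scale of the authors' deposited table, and the sign of Serpinb8 turned for equal group sums (0.028). Serpini1, the neuroserpin gene, averaged 2.29 normalized counts in the authors' deposited table and did not pass the threshold (log2 fold change 1.20, SE 1.47; DESeq2 adjusted p = 0.551).

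In the tissue factor pathway, 2 of 11 tested genes were higher and 5 lower, together 63.6%, beside 44.5% of all tested genes. The inhibitor of tissue factor, Tfpi, was, by the authors' deposited table, 1.73-fold lower with Yoda1 (95% interval 1.41 to 2.12), on the same side as F3, though not past the test against a log2 fold change of 0.5 (adjusted p = 0.382; smallest for all alternatives 8.44e-07). The implied ratio of F3 to Tfpi per kb was 4.05 with Yoda1 and 4.46 with DMSO. In the authors' deposited table, Thbd, thrombomodulin, was higher by 1.70-fold (1.55 to 1.86) and Procr, the endothelial protein C receptor, by 2.79-fold (2.29 to 3.40). Pros1, the gene of protein S, a cofactor of activated protein C, was lower there, with a ratio of 0.800 (0.703 to 0.910; DESeq2 adjusted p = 0.00235), and is named after its values were seen. The implied ratio of F3 to Thbd per kb was 0.348 with Yoda1 and 1.13 with DMSO. Ano6, the scramblase that exposes the lipid on which clotting complexes form, stood in the authors' deposited table at a ratio of 0.826 (0.746 to 0.914; DESeq2 adjusted p = 0.000829). The authors' deposited table had F8, the gene of factor VIII, at 40.1 normalized counts on average and 5.13-fold lower (2.98 to 8.82). Ano6 lost its call against a t distribution, where the adjusted p was 0.0764, within a range of 0.000707 to 1 for all alternatives. The thrombin receptor gene F2r had in the authors' deposited table a ratio of 1.15 (1.01 to 1.32; DESeq2 adjusted p = 0.0750). The protease-activated receptor gene F2rl1 and the prothrombin gene F2 averaged 0.330 and 0.164 normalized counts there and were not tested in the authors' deposited table. For equal group sums the adjusted p of F2r was 0.00443, within a range of 0.00443 to 1 for all alternatives. Plg, the plasminogen gene, and Tfpi2 were also looked up by symbol. Neither was found among the rows, so no level or fold change can be given for them.

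Of 9 tested genes for proteins that plasmin or its activators cut, 3 were higher and 5 lower (median log2 fold change -1.06). Together these are 88.9%, beside 44.5% of all tested genes. Hgf, a growth factor whose precursor urokinase can cut, was 2.21-fold higher with Yoda1 (95% interval 1.65 to 2.96) by the authors' deposited table, and Bdnf, whose precursor plasmin cuts, was 2.01-fold higher (1.69 to 2.39). By the authors' deposited table, the fibronectin gene Fn1 was 2.37-fold lower (2.12 to 2.66), and Igfbp5, which encodes an IGF binding protein, was 3.31-fold lower (2.95 to 3.72). Of the PDGF genes whose products need such cutting, Pdgfd was 2.81-fold lower (2.14 to 3.70) and Pdgfc stood at -0.08 on the log2 scale (SE 0.06; DESeq2 adjusted p = 0.331) by the authors' deposited table. The sign of Pdgfc turned for equal group sums (0.025). Mmp13 and Mmp9, matrix metalloproteinases made as precursors, were lower by 2.09-fold (1.80 to 2.42) and 17.0-fold (8.76 to 33.1) by the authors' deposited table, where Mmp9 averaged 42.9 normalized counts.

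**Figure D3:**
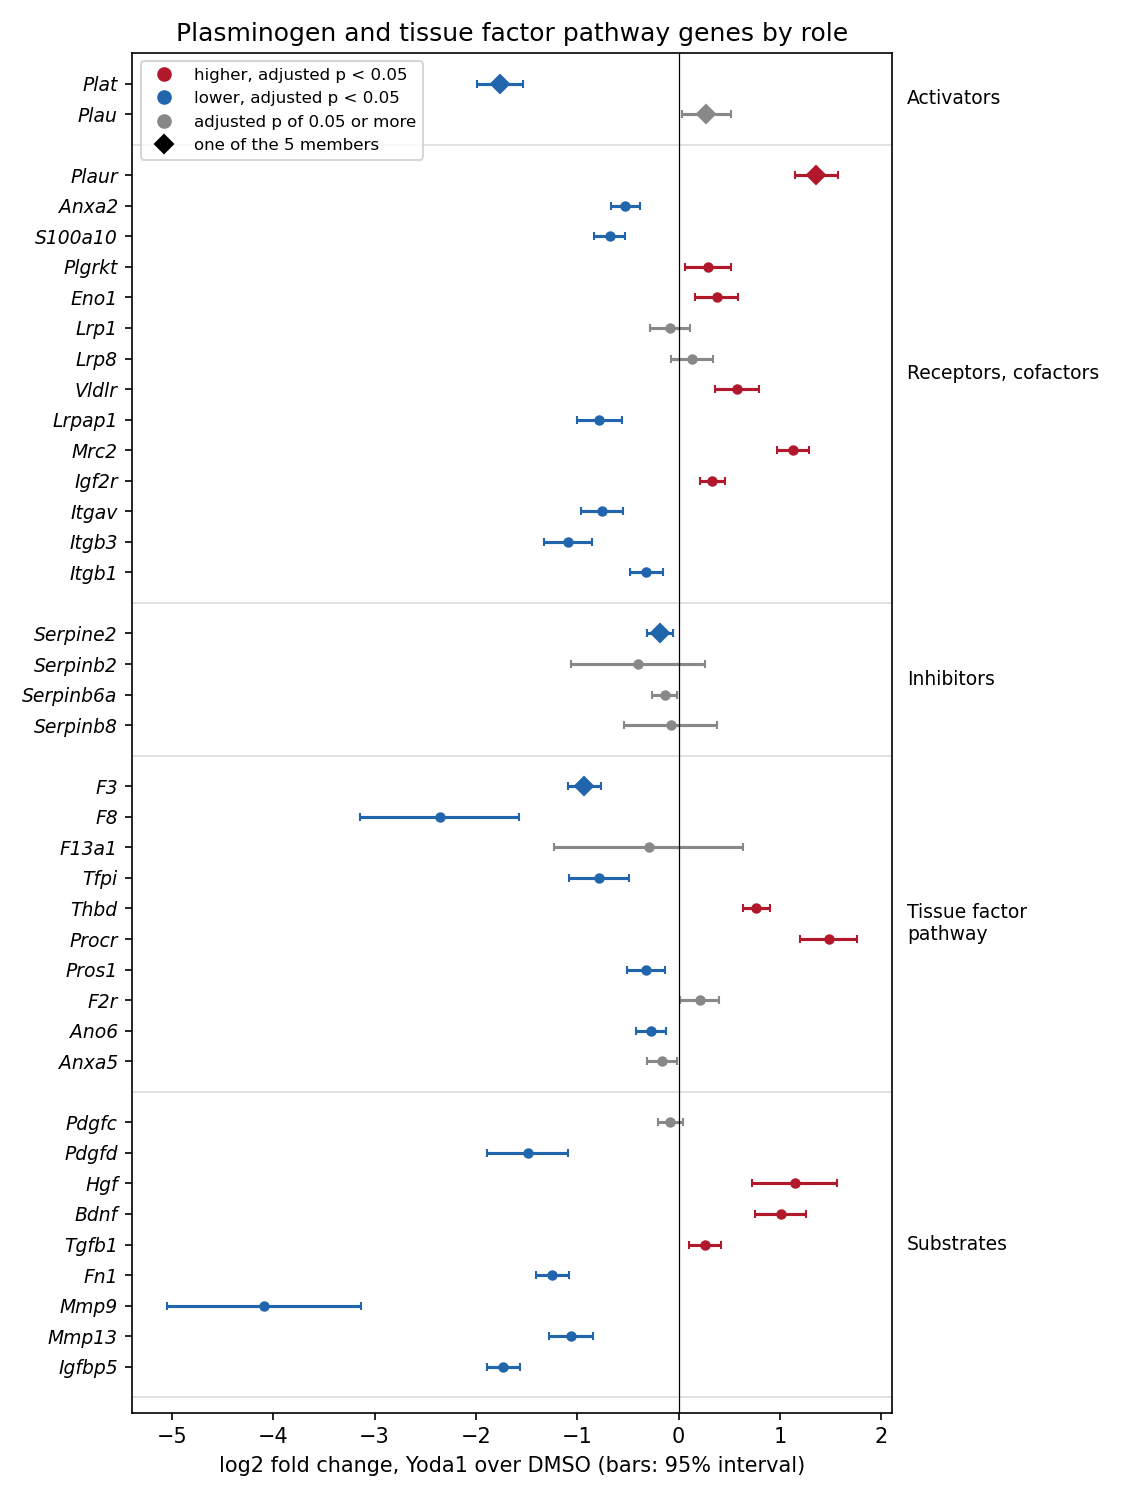
Log2 fold change, Yoda1 over DMSO, with 95% intervals for the tested pathway genes with a mean of at least 10 normalized counts, grouped by role; diamonds are the 5 members, red is higher, blue lower and grey not past an adjusted p of 0.05. Procr (1.48) and Plaur (1.36) stand furthest to the right, and Mmp9 (-4.09), F8 (-2.36) and Plat (-1.77) furthest to the left.

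The label of the cells was checked against markers, and the same values show what else moved with the members. All 8 osteoblast markers had a row and 7 had a mean of at least 10 normalized counts, with an implied sum of 524506 with Yoda1 and 696184 with DMSO, and 6 of them were lower and 1 higher. The higher one was Spp1, the osteopontin gene, with an implied mean of 270684 with Yoda1 and 36401 with DMSO, and without it the other 7 summed to 253822 with Yoda1 and 659783 with DMSO. In the authors' deposited table Alpl, the gene of tissue-nonspecific alkaline phosphatase, was 60.3-fold lower (24.4 to 149). Alpl averaged only 47.3 normalized counts, with an implied mean of 1.54 with Yoda1 and 93.1 with DMSO. Ibsp, the bone sialoprotein gene, was 29.9-fold lower (24.8 to 36.1) there. Runx2 and Sp7 were lower by 1.87-fold (1.67 to 2.08) and 1.44-fold (1.29 to 1.60). Bglap averaged 4.70 normalized counts and did not pass the threshold (DESeq2 adjusted p = 0.158). Of 10 endothelial markers, 6 had a row, with an implied sum of 466 with Yoda1 and 1185 with DMSO, nearly all of it from Flt1 (mean 813), and the other 5 summed to 13.1 with Yoda1 and 11.1 with DMSO. Of 8 macrophage and other blood cell markers, 6 had a row and 3 had a mean of at least 10 normalized counts. The implied sum of the 6 was 1073 with Yoda1 and 305 with DMSO, and 1 was higher and 1 lower. Cd14 had an implied mean of 989 with Yoda1 and 149 with DMSO (log2 fold change 2.73 in the authors' deposited table). Lyz2 had one of 54.7 with Yoda1 and 140.0 with DMSO (-1.35 there). Csf1r and Cd68 averaged 13.8 and 8.72 normalized counts there and did not pass the threshold (DESeq2 adjusted p = 0.113 and 0.954). Ptprc and Itgam averaged 0.157 and 0.323 normalized counts in the authors' deposited table and were not tested there. The markers named with their own values were picked after those were seen. The part of these marker changes in the results of the 5 members was not tested.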

How the data were processed

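Total RNA of MC3T3-E1 cells was sequenced after TruSeq RNA library preparation, per the labels' protocols. The submitters' processing notes name Salmon, DESeq2 and build GRCm39, with no versions. A single table was used, with 1 row per gene and no values per library. Its signal column, per the file headers, is the mean normalized count over the authors' libraries. The log2 fold change comes with an SE, both deposited by the authors, and the table's name gives the direction, Yoda1 over DMSO. The Wald score and both p-values, unadjusted and adjusted, are also the authors', per the file headers. For the design formula and the filters, the sources used here give nothing.

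Over all 20972 rows the means summed to 19849773 normalized counts, and libraries' own depths were not analysed here. The lowest mean of the 14653 tested genes was 1.92. Without values per library, the planned count test gave way to the comparison the authors deposited, with 0.05 as the threshold on the adjusted p. Separate cultures are not stated for the replicates in the sample labels, so p-values measure the spread between samples, which may be technical. Ratios and 95% intervals used the normal distribution. The level in each group was computed from the mean and the fold change, taking 3 libraries per group. The members, the 5 lists and the tests were chosen with earlier results of these data known. The rule for named genes took the 5 members, up to 6 genes per list with the smallest adjusted p, and 15 genes whatever their result; an item of the lists is not reported here and was left out of the counts. Of 1 symbol with several rows, Eno1, the row of higher mean was taken. Alternatives were adjustment over all rows, adjustment over means of at least 9.60 only, 3 centrings of the fold changes, a t distribution with 4 degrees of freedom, a test against a log2 fold change of 0.5, and fold thresholds of 0.5 and 1. Python 3.11.15 with scipy 1.17.1 and pandas 2.3.3 was used, and the recomputed adjustments were tested on simulated data. Transcript lengths are of GENCODE M21 (GRCm38), another build than the authors', and serve only to scale levels.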

Additional observations from a re-analysis of the deposited data

How the results depend on the processing

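Counts of calls depended most on the fold that was asked for. With a log2 fold change above 1, 2 of the 5 members and 13 of the pathway genes were called, in place of 4 and 29, and the test against 0.5 called 15 pathway genes. Serpine2 lost its call with equal summed counts (-0.080), a t distribution, the test against 0.5 and both fold thresholds (-0.18 in each), and F3 lost it with a fold above 1 (-0.93). Plau gained one with trimmed-mean and median centring (0.29 each) and with equal summed counts (0.38). The other 36 of 45 values of the members kept their side of the threshold. Signs turned with equal summed counts for Serpinb8 (0.028), Lrp1 (0.018) and Pdgfc (0.025), none of which was called. Over all tested genes, 6518 calls became 3977 with a fold above 0.5, 1486 above 1, 2990 with a t distribution and 1393 in the test against 0.5. No paired analysis was possible because the table holds 1 value per gene and no columns per library; for the same reason leaving out each replicate and the comparison of DESeq2 size factors with TMM were not run. The cause of these shifts beyond the alternatives' own construction was not tested. Precision was lower at a low mean count. The median standard error was 0.15 on the log2 scale over tested genes. It was 1.35 over the 1355 genes within 2-fold of the mean of Serpini1, of which 3.99% passed the threshold.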
